A study of Homo sapiens with 12 samples.

Results

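The genes described here are 10 AP-1 and immediate early genes, FOS, FOSL1, FOSL2, JUN, JUNB, JUND, EGR1, IER2, IER3 and MAFF. They were chosen by symbol, and each Ensembl ID in the count table was matched to its symbol through GENCODE. All 10 were found among the 25141 genes of the table, and all 10 were among the 12542 genes with enough counts to be tested. RNA was sequenced from HOS, a human osteosarcoma cell line, in 4 groups of 3 libraries. For upCIN85, cells were transfected with the pRc/CMV2-Rukl plasmid, which encodes full-length CIN85, and kept as a pool selected with geneticin, while Mock cells carried the empty vector. For siCIN85, a mixture of 3 CIN85-targeting siRNAs was transfected, with a non-targeting siRNA in siNeg. CIN85 is an adaptor protein, encoded by SH3KBP1, and the study asked how its level shapes osteosarcoma cells. All libraries came from 1 cell line, each overexpression arm was 1 selected pool, and the labels do not say whether replicates were separate cultures. The P-values below therefore measure only the spread between these libraries, which may be technical.

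AP-1 is a transcription factor made of a pair of leucine zipper proteins, usually a Fos protein (FOS, FOSL1, FOSL2) with a Jun protein (JUN, JUNB, JUND), or a pair of Jun proteins. Fos and Jun genes, together with EGR1, IER2, IER3 and MAFF, are immediate early genes: growth factors, serum, cytokines and stress switch them on within minutes through ERK, JNK and p38 kinases, without new protein synthesis. Their mRNAs are short-lived, so a steady-state level reflects ongoing signalling as well as the moment of harvest. In bone, AP-1 proteins are known regulators of osteoblasts and osteoclasts, and excess Fos drives osteosarcoma in mice. Among the group, JUND is known for more constant expression than the others, FOSL1 and FOSL2 for later and more lasting induction than FOS, while MAFF codes for a small Maf protein that lacks a transactivation domain and pairs with NRF and BACH proteins.

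Promoter sequence is shown for the members whose windows held a cyclic AMP response element or serum response motif, since these motifs are known inputs to immediate early transcription. RefSeq windows (GRCh38.p14) running from 250 bases before to 50 bases after a transcription start were at hand for 8 of the 10 members, in 9 windows. FOSL1 and IER3 had no entry. Both strands were searched for the AP-1 motif TGANTCA, the cyclic AMP response element TGACGTCA, the EGR motif GCGNGGGCG, the ETS motif CCGGAAG, the CArG box and the NF-kB motif. No matches overlapped in the windows shown, where capitals mark them.
MAFF, chr22:38201744-38202043, plus strand: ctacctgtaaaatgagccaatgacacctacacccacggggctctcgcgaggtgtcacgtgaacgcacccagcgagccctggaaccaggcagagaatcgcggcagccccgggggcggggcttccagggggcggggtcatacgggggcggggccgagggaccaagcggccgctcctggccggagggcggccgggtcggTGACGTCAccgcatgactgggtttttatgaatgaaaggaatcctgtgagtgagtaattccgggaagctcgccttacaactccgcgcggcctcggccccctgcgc
MAFF, chr22:38202770-38203069, plus strand: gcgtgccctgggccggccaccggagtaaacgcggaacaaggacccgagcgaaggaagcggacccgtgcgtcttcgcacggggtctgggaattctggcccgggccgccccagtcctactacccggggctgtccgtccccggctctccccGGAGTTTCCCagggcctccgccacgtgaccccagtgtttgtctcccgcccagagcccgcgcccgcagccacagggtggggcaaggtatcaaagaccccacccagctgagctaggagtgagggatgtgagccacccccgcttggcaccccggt
JUND, chr19:18281573-18281872, minus strand: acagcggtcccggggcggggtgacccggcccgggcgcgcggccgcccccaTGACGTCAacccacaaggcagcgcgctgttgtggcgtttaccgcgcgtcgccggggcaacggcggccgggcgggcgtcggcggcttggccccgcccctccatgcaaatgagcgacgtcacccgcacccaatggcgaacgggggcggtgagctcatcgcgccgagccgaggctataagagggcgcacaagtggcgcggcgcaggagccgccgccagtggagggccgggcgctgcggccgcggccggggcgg
EGR1, chr5:138465229-138465528, plus strand: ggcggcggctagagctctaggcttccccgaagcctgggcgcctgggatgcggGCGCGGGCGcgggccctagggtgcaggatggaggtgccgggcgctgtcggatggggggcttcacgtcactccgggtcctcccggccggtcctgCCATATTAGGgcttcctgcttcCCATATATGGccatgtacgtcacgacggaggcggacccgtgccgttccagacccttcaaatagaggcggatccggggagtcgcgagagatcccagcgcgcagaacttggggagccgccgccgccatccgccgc
The response element TGACGTCA began 54 bases before the upstream MAFF start and 200 bases before the JUND start, and 1.85% of 35116 RefSeq windows held it. The downstream MAFF window held an NF-kB match on the opposite strand, 102 bases before the start, as did 11.3% of windows. EGR1 held 2 CArG boxes, the site bound by serum response factor, 105 and 83 bases before the start (1.29% of windows), and an EGR match 198 bases before it (9.43% of windows). FOSL2 held an AP-1 match 5 bases after the start (7.71% of windows), and IER2 an ETS match 27 bases before it (10.3% of windows). The windows of FOS, JUN and JUNB held no exact match of these letters, which says nothing about what binds there.

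The libraries held 5334731 to 5774968 counts in Mock, 5726535 to 6049458 in upCIN85, 4011368 to 4174860 in siNeg and 3540641 to 3991517 in siCIN85, so the siRNA arms were shallower. Mitochondrial transcripts took 3.52 to 7.53% of counts, most in siNeg replicate 3. SH3KBP1 was at 85.1 ± 2.37 CPM (the usual library-size-scaled read count, here after TMM scaling, mean ± SD, n = 3) in siNeg and 7.54 ± 3.19 in siCIN85, a log2 fold change of -3.51 (edgeR adjusted P = 5.09e-08). It was at 77.5 ± 5.004 CPM in Mock and 81.3 ± 9.61 in the libraries labelled upCIN85, a log2 fold change of 0.07 (SE 0.16, edgeR adjusted P = 0.887). Only transcript 3′ ends were read, and whether the plasmid transcript carries the counted SH3KBP1 end is not given in the sources used here, so this count does not check the upCIN85 label. All 7 osteoblast and mesenchymal markers in the table had counts in every group. Of these, COL1A2 and ALPL were higher in upCIN85 than in Mock (edgeR adjusted P = 0.0439 and 0.034), a test that 1.23% of all genes passed. The COL1A2 call was lost without Mock replicate 2 or 3 or upCIN85 replicate 1 or 3 (edgeR adjusted P up to 0.253). It was also lost without siNeg replicate 2 or siCIN85 replicate 1, which lie outside this comparison. The ALPL call was lost without any Mock or upCIN85 library, and without siCIN85 replicate 1 (edgeR adjusted P up to 0.181). ALPL had only 0 to 23 counts per library. DESeq2 called neither gene here (adjusted P = 0.0594 for COL1A2) and called SPP1 higher, beside 2.56% of all genes called. A fit with a replicate block in the knockdown experiment called 3 of the 7 higher and 1 lower, beside 4.35% of all genes called. The 7 markers summed to 1722.9 to 2088.3 CPM in siNeg and 1199.6 to 1605.4 CPM in siCIN85, without overlap, and their part in the results below was not tested. Epithelial markers summed to 316 to 416 CPM over all libraries. The blood cell markers PTPRC and CD3E and the endothelial marker VWF never exceeded 1 count in a library, while the blood cell markers CD14 and ITGAM had 4 to 9 and 0 to 10 counts and the endothelial markers PECAM1 and CDH5 had 0 to 6 and 2 to 36.

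CIN85 silencing was accompanied by a higher level of MAFF, and 8 of the 10 genes stood higher in siCIN85 than in siNeg. MAFF rose 2.13-fold and was the only member past an adjusted P of 0.05 in edgeR's quasi-likelihood test over all genes, a threshold that 1.04% of all genes tested passed. FOSL1, which codes for Fra-1, was 1.96-fold higher and missed the threshold, but passed once the replicate numbers were taken into account. JUND and IER3 stood lower, without passing the test. The median log2 fold change of the 10 genes was 0.28, beside -0.01 over all genes tested.

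**Figure D1:**
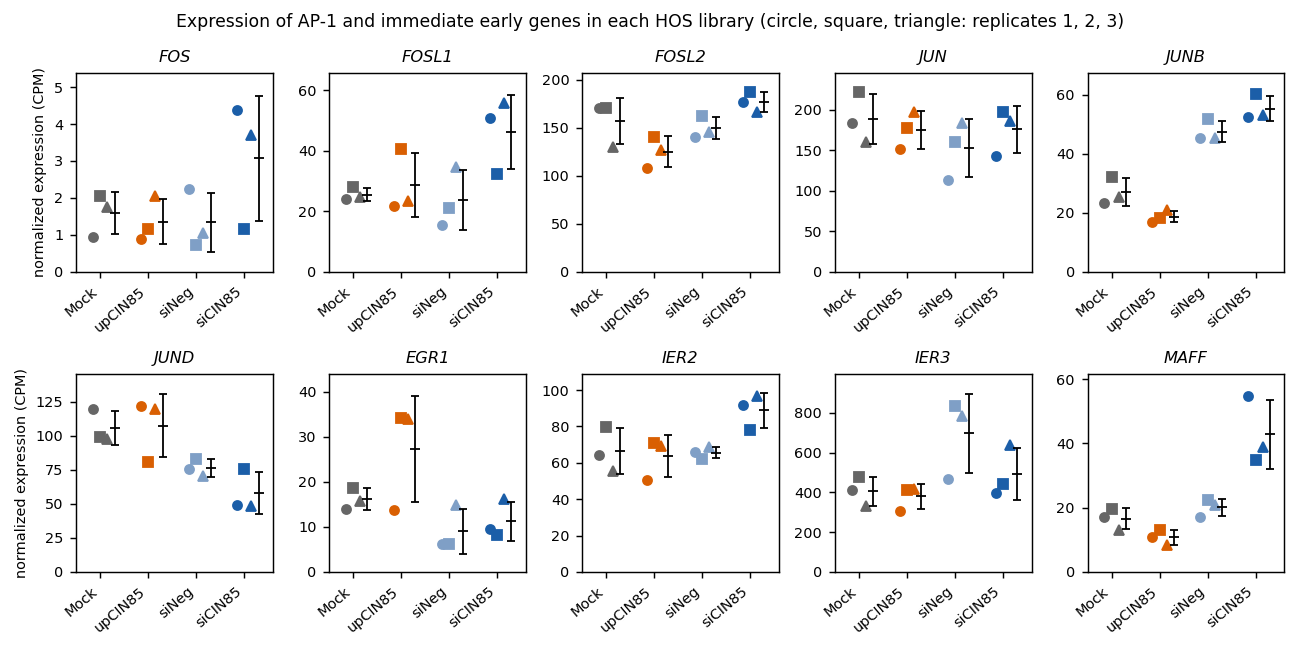
Normalized expression (CPM, linear axis from 0) of the 10 genes in each library of the 4 groups, with circles, squares and triangles for replicates 1, 2 and 3 and bars for the mean ± SD (n = 3). MAFF in the 3 siCIN85 libraries, at 34.7 to 54.8 CPM, sits above every other library, and JUNB in the siRNA arms, at 45.3 to 60.2 CPM, sits above both plasmid arms.

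MAFF (chr22:38200767-38216511, GRCh38, GENCODE 29, plus strand) stood at 17.2, 22.2 and 20.8 CPM in the siNeg libraries and at 54.8, 34.7 and 38.8 CPM in the siCIN85 libraries. Every siCIN85 library was above every siNeg library, and above every Mock and upCIN85 library as well. The means were 20.1 ± 2.58 and 42.8 ± 10.6 CPM (SD, n = 3), resting on 69 to 91 and 120 to 226 counts per library. The log2 fold change was 1.09 (SE 0.21, 95% confidence interval 0.66 to 1.53, edgeR adjusted P = 0.0219). Without siCIN85 replicate 1, the highest library, it was 0.87 (edgeR adjusted P = 0.14). The call was also lost without siNeg replicate 1 (edgeR adjusted P = 0.0979), siNeg replicate 2 (0.0707) or siCIN85 replicate 3 (0.0571). MAFF shares 4924 bases with PLA2G6 on the opposite strand, a gene with 2 to 6 counts per library.

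In the Fos family, the 3 genes stood higher in siCIN85. None passed edgeR's test of all 12 libraries without a block, among genes with enough counts. With no filter on low counts FOSL1 passed (edgeR adjusted P = 1.55e-05). FOSL1 (chr11:65892049-65900573, minus strand) was at 15.5, 21.0 and 34.6 CPM in siNeg and at 50.7, 32.4 and 55.7 CPM in siCIN85. The lowest siCIN85 library lay below the highest siNeg library, so the groups overlapped, although each siCIN85 library was above the siNeg library of its own number. The log2 fold change was 0.97 (SE 0.28, confidence interval 0.39 to 1.55, edgeR adjusted P = 0.0975). Blocked on replicate number in the knockdown experiment, it was 0.99 and passed (edgeR adjusted P = 0.024), in a fit that called 3.42% of all genes, and DESeq2, which called 2.32% of all genes, also called it (adjusted P = 0.0275). The overlap rested on siNeg replicate 3, the library with the largest mitochondrial share, and siCIN85 replicate 2. Without the former the log2 fold change was 1.34 (edgeR adjusted P = 0.0273), and without the latter it was 1.16 (edgeR adjusted P = 0.0354). FOSL1 did not pass without siNeg replicate 1 (edgeR adjusted P = 0.276) or 2 (0.306), or without siCIN85 replicate 1 (0.315) or 3 (0.277). The part of that share in the FOSL1 level was not tested.

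FOSL2 (chr2:28392448-28417312, plus strand), coding for Fra-2, was at 140.2, 162.5 and 145 CPM in siNeg and at 177, 187 and 166 CPM in siCIN85. The groups did not overlap, yet the log2 fold change was only 0.24 (SE 0.12, edgeR adjusted P = 0.356). FOS itself (chr14:75278774-75282230, plus strand) was close to the limit of detection, with 3 to 18 counts in any of the 12 libraries. It was at 2.249, 0.73 and 1.04 CPM in siNeg and at 4.37, 1.16 and 3.70 CPM in siCIN85, so the groups overlapped. Its log2 fold change of 1.21 had a confidence interval of 0.07 to 2.34 (edgeR adjusted P = 0.284).

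In the Jun family, JUNB and JUN stood slightly higher and JUND lower. JUNB (chr19:12791496-12793315, plus strand), a Jun protein that can restrain JUN, was at 45.5, 51.8 and 45.3 CPM in siNeg and at 52.4, 60.2 and 53.1 CPM in siCIN85. These groups did not overlap, but the log2 fold change of 0.21 (SE 0.14) did not pass the test (edgeR adjusted P = 0.48). JUN (chr1:58780788-58784327, minus strand) was at 113, 160.3 and 183 CPM in siNeg and at 143, 198 and 186 CPM in siCIN85, overlapping, with a log2 fold change of 0.21 (SE 0.17, edgeR adjusted P = 0.586). JUND (chr19:18279760-18281622, minus strand) was at 76.0, 82.8 and 70.3 CPM in siNeg and at 49.3, 75.5 and 48.3 CPM in siCIN85. Only siCIN85 replicate 2 reached the siNeg range, and the log2 fold change was -0.41 (SE 0.18, edgeR adjusted P = 0.281).

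Among the other immediate early members, IER2 stood higher and IER3 lower in siCIN85, both short of the threshold. IER2 (chr19:13150415-13154908, plus strand), a nuclear protein, was at 66.2, 62.3 and 68.5 CPM in siNeg and at 91.7, 78.1 and 96.9 CPM in siCIN85, with no overlap. The log2 fold change was 0.44 (SE 0.15, edgeR adjusted P = 0.176). IER3 (chr6:30743199-30744554, minus strand), a stress-induced regulator of cell survival, was at 469, 836 and 783 CPM in siNeg and at 398, 439.9 and 639.8 CPM in siCIN85. The groups overlapped and the log2 fold change was -0.50 (SE 0.20, edgeR adjusted P = 0.246). EGR1 (chr5:138465490-138469315, plus strand), a zinc finger factor, was at 6.25, 6.11 and 14.8 CPM in siNeg and at 9.46, 8.10 and 16.1 CPM in siCIN85. In both arms replicate 3 was the high library, and the log2 fold change was 0.32 (SE 0.40, edgeR adjusted P = 0.742).

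Counted by library, 4 members (MAFF, FOSL2, JUNB and IER2) were higher in all siCIN85 than in all siNeg libraries, beside 9.91% of all genes tested, and 0 were lower, beside 10.2%. The replicate numbers tied the siRNA libraries together, so ratios within a number were also read. All 10 members kept 1 sign over the 3 pairs: 8 were higher in every pair, beside 22.4% of all genes tested, and JUND and IER3 were lower in every pair, beside 22.8%. The log2 ratios ranged from 0.63 to 1.65 for MAFF and from 0.61 to 1.68 for FOSL1. JUNB had the tightest ratios, 0.20, 0.21 and 0.23, and those of JUN were 0.34, 0.30 and 0.02. All 10 members were read in the same libraries, and some pairs varied together, as described below. They are therefore not 10 independent readings.

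**Figure D2:**
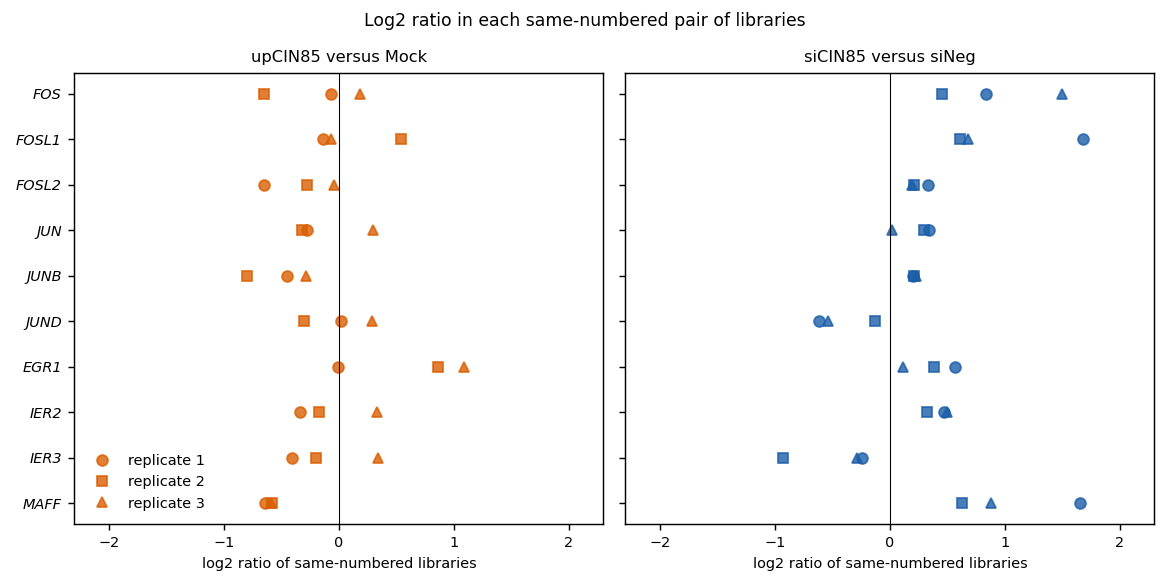
Log2 ratio of CPM within each same-numbered pair of libraries for the 10 genes (left, upCIN85 against Mock; right, siCIN85 against siNeg), with circles, squares and triangles for pairs 1, 2 and 3. On the right, 8 genes lie above 0 and 2 below 0 in all 3 pairs; on the left, 0 lie above and 3 below in all 3 pairs, beside 20.8% and 21.3% of all genes tested.

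In the CIN85 plasmid pool, none of the 10 genes changed past the threshold. The count was 0 of 10 in edgeR's test, where 1.23% of all genes tested passed, and 0 of 10 in DESeq2, where 2.56% passed. At an unadjusted P below 0.05, 4 members stood out: JUNB, MAFF and FOSL2 lower and EGR1 higher in upCIN85, beside 14.5% of all genes. The median log2 fold change of the 10 genes was -0.10, beside 0.01 over all genes tested, and it was 0.008 without Mock replicate 2.

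JUNB came nearest to a call, with 23.3, 32.3 and 25.4 CPM in Mock and 17.0, 18.3 and 20.7 CPM in upCIN85. All upCIN85 libraries were below all Mock libraries, the 1 member for which the plasmid arms did not overlap, beside 11.0% of all genes tested that were lower in this way and 9.74% that were higher. The log2 fold change was -0.53 (SE 0.15, confidence interval -0.85 to -0.22, edgeR adjusted P = 0.0817). JUNB passed (edgeR adjusted P = 0.0438) in the fit with a replicate block in the knockdown experiment, which left this log2 fold change as it was and called 4.35% of all genes. JUNB lies wholly within HOOK2 on the opposite strand, a gene with 60 to 91 counts per library. The strand setting of the counting is not given in the sources used here, so reads of the overlapping pair cannot be told apart with certainty.

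MAFF was at 17.1, 19.7 and 13.0 CPM in Mock and at 10.8, 13.1 and 8.50 CPM in upCIN85. The highest upCIN85 library just exceeded the lowest Mock library. The log2 fold change was -0.62 (SE 0.22, confidence interval -1.08 to -0.16, edgeR adjusted P = 0.177). Over the 4 groups the MAFF means ran from 10.8 ± 2.29 CPM in upCIN85 through 16.6 ± 3.39 in Mock and 20.1 ± 2.58 in siNeg to 42.8 ± 10.6 in siCIN85, and in this order only siNeg and siCIN85 were neighbours without overlap.

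FOSL2 was at 170.4, 170.4 and 129.6 CPM in Mock and at 108, 140.2 and 126 CPM in upCIN85, overlapping, with a log2 fold change of -0.33 (SE 0.12, edgeR adjusted P = 0.212). EGR1 was at 13.9, 18.7 and 15.8 CPM in Mock and at 13.8, 34.2 and 34.0 CPM in upCIN85. A pair of upCIN85 libraries lay above all Mock libraries and the other at their lower edge, so the log2 fold change of 0.76 had a wide confidence interval, 0.08 to 1.44 (edgeR adjusted P = 0.28). FOSL1, unlike EGR1, rested on 1 high library, with 21.7, 40.7 and 23.3 CPM in upCIN85 against 23.9, 27.8 and 24.6 CPM in Mock (log2 fold change 0.17, SE 0.27, edgeR adjusted P = 0.824). Without that library, upCIN85 replicate 2, the FOSL1 log2 fold change was -0.18.

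The remaining 5 members overlapped between the plasmid arms, with log2 fold changes from -0.23 for FOS to 0.02 for JUND. JUN was at 184, 222 and 159.9 CPM in Mock and at 151, 177 and 197 CPM in upCIN85. IER3 was at 409.7, 476 and 329.9 CPM in Mock and at 308, 413 and 419 CPM in upCIN85. IER2 averaged 66.5 ± 12.4 CPM in Mock and 63.7 ± 11.4 in upCIN85, and JUND 105.7 ± 12.4 and 107 ± 23.2 (SD, n = 3). For JUND the confidence interval of the log2 fold change, -0.34 to 0.38, leaves room for moderate differences either way. FOS held 5 to 12 counts in every library of both arms.

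**Figure D3:**
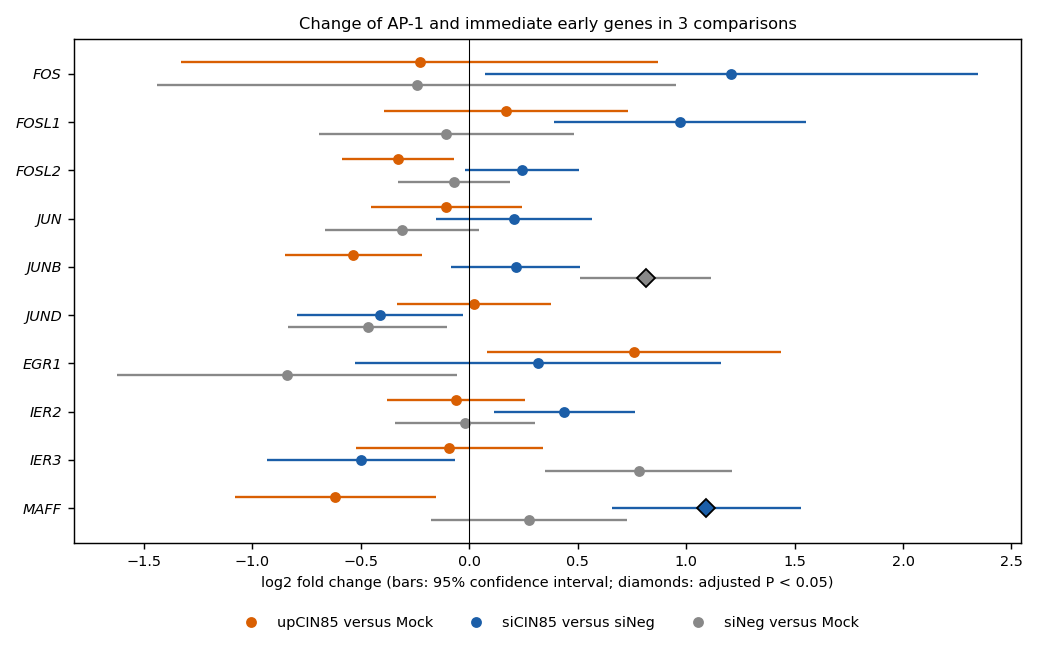
Log2 fold change of the 10 genes in 3 comparisons (orange, upCIN85 versus Mock; blue, siCIN85 versus siNeg; grey, siNeg versus Mock), with bars for the 95% confidence interval and diamonds for an adjusted P below 0.05. The diamonds are MAFF in siCIN85 versus siNeg, at 1.09, and JUNB in siNeg versus Mock, at 0.81.

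Both effects were then compared directly, as the overexpression effect minus the knockdown effect in 1 model. MAFF was the only member for which they differed past the threshold, by -1.71 on the log2 scale (SE 0.30, confidence interval -2.34 to -1.08, edgeR adjusted P = 0.0121), a test that 0.973% of all genes passed. Without Mock replicate 2 the difference was -1.57 and just missed the threshold (edgeR adjusted P = 0.0513). For JUNB the difference was -0.75 (SE 0.20, edgeR adjusted P = 0.0833), and with the knockdown replicate block it passed narrowly (edgeR adjusted P = 0.0498), in a fit that called 2.93% of all genes. FOSL1 differed by -0.80 (SE 0.38, edgeR adjusted P = 0.348) and FOSL2 by -0.57 (SE 0.17, edgeR adjusted P = 0.123). The differences of EGR1, IER3 and JUND were positive, at 0.44, 0.41 and 0.43, and did not pass.

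Both control groups were also set side by side, which shows what the siRNA arms and the plasmid arms differed in before CIN85 was altered. This comparison shares its Mock libraries with the overexpression comparison and its siNeg libraries with the knockdown comparison. Plasmid and geneticin selection, siRNA transfection and sequencing depth differ together here and cannot be told apart. JUNB rose 1.76-fold in siNeg over Mock, from 27.0 ± 4.67 to 47.5 ± 3.70 CPM (SD, n = 3), and every siNeg library was above every Mock library. Its log2 fold change was 0.81 (SE 0.14, edgeR adjusted P = 0.0153), the 1 call among the members, beside 0.526% of all genes tested. The call was lost without Mock replicate 1 (edgeR adjusted P = 0.103), Mock replicate 3 (0.0876) or siNeg replicate 2 (0.104).

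The other differences between the controls did not pass. IER3 was 1.72-fold higher in siNeg (log2 fold change 0.78, SE 0.21, edgeR adjusted P = 0.101), and DESeq2, which called 1.48% of all genes here, called it together with JUNB. The lowest siNeg value of IER3, 469 CPM, lay just under the highest Mock value, 476 CPM. EGR1 had a log2 fold change of -0.84 (SE 0.37, edgeR adjusted P = 0.367), with siNeg replicate 3 inside the Mock range. JUND had a log2 fold change of -0.47 (SE 0.17, edgeR adjusted P = 0.262), and its siNeg libraries, at 70.3 to 82.8 CPM, lay below its Mock libraries, at 97.9 to 120.02 CPM. By library, then, 1 member was higher and 1 lower without overlap, beside 9.48% and 9.94% of all genes tested. In the order of group means JUNB ran from upCIN85 (18.7 CPM) through Mock (27.0) and siNeg (47.5) to siCIN85 (55.2), with no overlap between any neighbours. JUND ran nearly the other way, from siCIN85 (57.7) and siNeg (76.4) to Mock (105.7) and upCIN85 (107), where siCIN85 overlapped siNeg and Mock overlapped upCIN85. Both orders were read from the means themselves, and the share of all genes separated in this way was not counted. For JUNB, siNeg reached 51.8 CPM and siCIN85 began at 52.4 CPM, a step that did not pass (edgeR adjusted P = 0.48).

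The spread between replicates differed greatly among the members. The within-group SD of log2 CPM was 0.63 for FOS, 0.58 for EGR1 and 0.43 for FOSL1, but 0.16 for JUNB and FOSL2, beside a median of 0.22 over all genes tested. IER3 (0.34), MAFF (0.29), JUN (0.27) and JUND (0.27) were between, and IER2 was at 0.21. For EGR1 the coefficient of variation was 14.9% in Mock but 42.8% in upCIN85 and 55.2% in siNeg. Since all libraries are bulk RNA, fewer cells expressing a gene and less RNA per cell cannot be told apart.

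Some pairs of members also varied together within groups. After subtraction of each group's mean, 13 of the 45 pairs of members had a Pearson r above 0.5 over the 12 libraries and 4 had an r below -0.5, with a median of 0.25. The same values were not taken over pairs of other genes, so whether the members are unusual in this was not tested. The highest values were JUN with IER3 (0.84), FOSL1 with EGR1 (0.77) and EGR1 with IER2 (0.71). All 4 pairs below -0.5 held JUND, the lowest being FOSL1 with JUND (-0.79). The points share libraries, depth and normalization, so these values are descriptions. In siNeg replicate 3 EGR1 lay 0.81 and FOSL1 0.62 log2 units above their group mean, in upCIN85 replicate 1 EGR1 lay 0.85 below, and in siCIN85 replicate 2 JUND lay 0.42 above while FOSL1 lay 0.47 below.

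**Figure D4:**
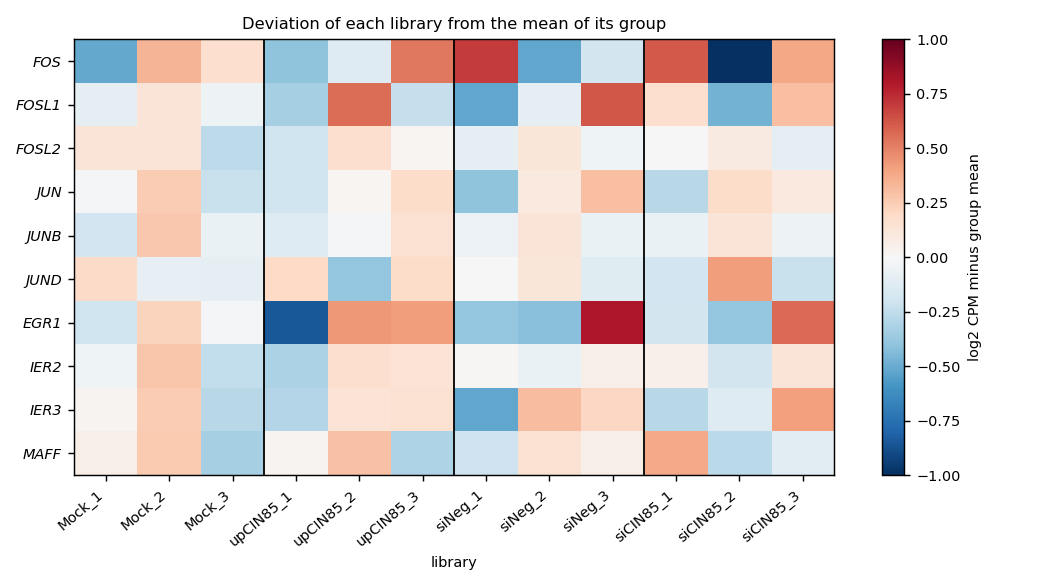
Deviation of each library from the mean of its group in log2 CPM (red above, blue below, colour scale from -1 to 1) for the 10 genes, with vertical lines between the groups. EGR1 in siNeg replicate 3, 0.81 above its group, and in upCIN85 replicate 1, 0.85 below, are among the strongest colours, while the rows of JUNB and FOSL2 stay pale.

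The genes outside the group with the most similar patterns were sought among all genes tested, by Pearson r of log2 CPM over the 12 libraries after subtracting the mean of each experiment. The nearest were MYO5B for MAFF (r = 0.96), TIMM22 for FOSL1 (0.96), PDGFRB for JUND (0.95) and IL11 for IER2 (0.95). For FOSL2 it was SLC35F6 (0.94), for JUN TMEM63B (0.94) and for JUNB a gene without a symbol (0.93). STAC was nearest to EGR1 (0.93) and UNC45A to IER3 (0.92), and the lowest value was that of SPRY2 for FOS (0.88). Each is the best of all genes tested, so a high value is usual. PDGFRB was also the nearest to JUND (0.96) when group means were subtracted instead, while the nearest genes of the other 9 members changed.

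In the wider AP-1 and bZIP family, 13 of 19 further genes had enough counts to be tested. NFE2L3, a NRF-type bZIP factor whose family pairs with small Maf proteins, fell in upCIN85 from 22.0 ± 2.53 to 10.4 ± 1.97 CPM (log2 fold change -1.09, SE 0.16, edgeR adjusted P = 0.00306). No other gene of the 13 was called in that comparison, where 1.23% of all genes passed. In siCIN85 versus siNeg, 0 of 13 passed in edgeR's test and 1 reached an unadjusted P below 0.05, beside 15.7% of all genes. DESeq2 called 1, beside 2.32% of all genes. NFE2L3 itself was at 22.2 ± 0.95 CPM in siNeg and 25.0 ± 0.32 in siCIN85 (SD, n = 3). FOSB, the remaining Fos gene, had 0 to 16 counts per library and was not tested.

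Of 32 other immediate early genes, 27 were tested. In siCIN85 versus siNeg, 20 had a positive and 7 a negative log2 fold change, and the median was 0.24, beside -0.01 over all genes. CSRNP1, a nuclear factor induced by axin, rose from 53.2 ± 6.33 to 93.6 ± 12.2 CPM (log2 fold change 0.82, SE 0.14, edgeR adjusted P = 0.0136). PPP1R15A, the GADD34 subunit that directs eIF2α dephosphorylation, rose from 66.3 ± 10.5 to 119 ± 25.9 CPM (log2 fold change 0.85, SE 0.20, edgeR adjusted P = 0.0462). These were the 2 of 27 that passed in edgeR's test, beside 1.04% of all genes. DESeq2 called 5 of the 27 higher and 0 lower, beside 2.32% of all genes. By library, 9 of the 27 were higher without overlap and 1 was lower, beside 9.91% and 10.2% of all genes. In upCIN85 versus Mock, 9 had a positive and 18 a negative log2 fold change, and 1 gene passed, beside 1.23% of all genes. DUSP1, a phosphatase that switches off MAP kinases, fell from 79.6 ± 19.4 to 40.1 ± 6.38 CPM (log2 fold change -0.99, SE 0.23, edgeR adjusted P = 0.0418). The CSRNP1 call was lost without siNeg replicate 1 or 2 or siCIN85 replicate 1 or 3, the same 4 libraries as for MAFF, with edgeR adjusted P up to 0.102. The PPP1R15A call was lost without any of these 4, any Mock library or upCIN85 replicate 1 (edgeR adjusted P up to 0.239), and in a fit of the 6 siRNA libraries alone (0.0635). The DUSP1 call was lost without any Mock or upCIN85 library or siCIN85 replicate 1 (edgeR adjusted P up to 0.204), and with the libraries thinned to the smallest total count (0.0865).

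Of 18 factors and kinases upstream of immediate early genes, all were tested. Only ELK3, an ETS factor that acts with serum response factor, passed in siCIN85 versus siNeg, beside 1.04% of all genes. It rose from 71.0 ± 8.18 to 110.2 ± 17.0 CPM (log2 fold change 0.64, SE 0.13, edgeR adjusted P = 0.0264). Its call, too, was lost without siNeg replicate 1 or 2 or siCIN85 replicate 1 or 3 (edgeR adjusted P up to 0.168), and in a fit of the 6 siRNA libraries alone (0.08). In upCIN85 versus Mock 0 of 18 passed in edgeR's test, where 1.23% of all genes did. At an unadjusted P below 0.05, 2 stood out, beside 14.5% of all genes, and DESeq2 called 1, beside 2.56%.

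Known AP-1 target genes were tested for 17 of 22. In siCIN85 versus siNeg, 10 of the 17 had a positive and 7 a negative log2 fold change. In edgeR's test 3 passed as higher and 0 as lower, beside 1.04% of all genes called. The collagenase MMP1 rose from 6.53 ± 3.45 to 28.0 ± 7.39 CPM (edgeR adjusted P = 0.0321). The urokinase receptor PLAUR rose from 34.7 ± 10.3 to 89.5 ± 39.2 CPM (0.0306), and the cyclin CCND1 from 199.6 ± 12.8 to 330.3 ± 26.3 CPM (0.0324). DESeq2 (2.32% of all genes) called PLAUR, CCND1 and IL11 higher. The knockdown replicate block (3.42%) called 4 higher and 1 lower, adding IL11 and FN1 to MMP1, PLAUR and CCND1. The PLAUR and CCND1 calls were lost without the same 4 siRNA libraries as the MAFF call (edgeR adjusted P up to 0.199 and 0.171), and the PLAUR call also in a fit of the 6 siRNA libraries alone (0.0787). The MMP1 call was lost without these 4, siNeg replicate 3 or Mock replicate 2 (edgeR adjusted P up to 0.174), and MMP1 was not among the genes called by DESeq2. In upCIN85 versus Mock, 7 of the 17 had a positive and 10 a negative log2 fold change. In edgeR's test 0 passed as higher and 2 as lower, beside 1.23% of all genes called. The chemokine CXCL8 fell from 20.001 ± 4.59 to 1.35 ± 0.41 CPM (edgeR adjusted P = 0.000135). The urokinase PLAU fell from 36.2 ± 3.92 to 22.3 ± 3.76 CPM (edgeR adjusted P = 0.0261). The PLAU call was lost without Mock replicate 1 or 2 or upCIN85 replicate 3 (edgeR adjusted P up to 0.157), and with the libraries thinned to the smallest total count (0.173). DESeq2 (2.56% of all genes) and the knockdown replicate block (4.35%) called the same 2 lower and VEGFA higher. CXCL8 also rose from Mock to siNeg, where it was at 170.04 ± 46.6 CPM (edgeR adjusted P = 1.1e-05). The lists name targets of other factors too, and no test linked them to the levels of the 10 genes.

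Heat shock genes were listed as a reading of general stress. All 10 were tested, and 0 passed in any comparison in edgeR's test or in DESeq2. At an unadjusted P below 0.05, 0 stood out in either CIN85 comparison and 1 was lower in siNeg than in Mock, where 12.4% of all genes did so in either direction.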

How the data were processed

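Total RNA of HOS cells was converted into QuantSeq 3′ FWD libraries with unique molecular identifiers. The authors deposited raw read counts per gene for 12 libraries. The submitters' processing notes name GRCh38, cutadapt 4.3, STAR 2.7.3a, Picard 2.25.6 and featureCounts (Subread 2.0). The annotation release, the strand setting and whether identifiers were collapsed are not given in the sources used here.

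Groups came from the labels. Counts were filtered with filterByExpr (minimum count 10, minimum total 15), scaled by TMM and tested with edgeR 4.0.16 in R 4.3.3 (glmQLFit, glmQLFTest, 1 mean for each of 4 groups, 8 residual degrees of freedom), with Benjamini-Hochberg adjustment over 12542 genes. The authors used DESeq2, run here (version 1.42.0) as an alternative, as were other scalings, filters, blocks, thinning and leaving out each library. The script was checked on simulated counts. CPM are TMM-scaled, and correlations used a prior count of 2. Symbols and coordinates are from GENCODE 29, and 95 IDs had no match.

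Same-numbered libraries deviated together in the knockdown experiment (Pearson r across genes 0.353, 0.269 and 0.446) but not by the rule used, an r above 0.1 in every pair, in the overexpression experiment (0.326, 0.227 and 0.099), so a block was read beside the knockdown results. The pairing comes from the numbers in the labels. Members and lists were chosen with earlier results of these data known. All 10 members, and list genes past an adjusted P of 0.05 in either CIN85 comparison (at most 5 per list), were named.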

Additional observations from a re-analysis of the deposited data

Results flagged for a closer look

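The overexpression effect and the knockdown effect differed past an adjusted P of 0.05 for MAFF and 4 genes of the AP-1, immediate early and target lists, and for 2 osteoblast and mesenchymal markers, by edgeR's test of the difference itself. That test called 1 of 10 members, 1 of 13 further bZIP genes, 1 of 27 other immediate early genes and 2 of 17 targets. It also called 2 of 7 osteoblast and mesenchymal markers, beside 0.973% of all genes tested. The differences, overexpression minus knockdown on the log2 scale, were -1.71 for MAFF (edgeR adjusted P = 0.0121), -1.26 for NFE2L3 (0.0147), -1.93 for ARC (0.0486), -3.46 for CXCL8 (0.00287) and -0.92 for PLAU (0.0397). NFE2L3, CXCL8 and PLAU passed the threshold in upCIN85 versus Mock and MAFF in siCIN85 versus siNeg. ARC, an immediate early gene named here after its values were seen, passed in neither alone: its Mock level of 3.77 ± 0.57 CPM compared with 1.93 ± 0.77 CPM for upCIN85, and its siNeg level of 3.35 ± 0.33 CPM with 6.55 ± 1.24 CPM for siCIN85 (SD, n = 3). With single libraries left out, the difference passed in 12 of 12 fits for CXCL8, 11 for MAFF and NFE2L3 (both lost without Mock replicate 2), 2 for PLAU and 1 for ARC. The collagen genes COL1A2 and COL1A1 had differences of the other sign, 2.61 (edgeR adjusted P = 0.0151, passing in 9 of 12 such fits) and 1.27 (0.0381, passing in 4).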

How the results depend on the processing

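Another scaling (RLE), a filter of at least 10 counts in every library (which removed FOS), thinning to 3540641 counts and, where it applied, fitting only the 6 libraries of a comparison left every count of members called as it was. Shares in brackets are of all genes fitted. With no filter on low counts the number called was 3 instead of 1 in siCIN85 versus siNeg (FOSL1, IER3 and MAFF, 2.45%). That fit called 4 instead of 1 in siNeg versus Mock (1.5%) and 1 instead of 0 in upCIN85 versus Mock (2.53%). DESeq2 called 2 in siCIN85 versus siNeg (2.32%) and 2 in siNeg versus Mock (1.48%). A replicate block in the knockdown experiment, where the numbers pair the libraries, gave 2 calls in siCIN85 versus siNeg (3.42%), 1 in upCIN85 versus Mock (4.35%) and 2 for the difference of the effects (2.93%). A block in both experiments gave 5 calls in siCIN85 versus siNeg (FOSL1, IER2, IER3, JUND and MAFF, 7.72%), 3 in upCIN85 versus Mock (EGR1, JUNB and MAFF, 8.25%) and 4 for the difference (FOSL1, FOSL2, JUNB and MAFF, 7.32%), while DESeq2 with that block gave 2 in siCIN85 versus siNeg (3.53%), 0 in upCIN85 versus Mock (3.5%) and 2 for the difference (2.99%). No block was fitted for siNeg versus Mock, whose numbers belong to different experiments. The cause of these shifts was not tested.

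Leaving out single libraries gave 0 to 2 calls in siCIN85 versus siNeg, 0 to 2 in siNeg versus Mock and 0 to 1 for the difference. Of 790 values of single members under alternatives, 740 kept their direction and side of the threshold, 8 lost the call, 26 gained it and 16 changed sign, all 16 with a library left out. Leaving out a library from outside a comparison hardly moved its log2 fold changes, so the 740 say little about how firmly a call held. The MAFF call in siCIN85 versus siNeg was lost without siNeg replicate 1 or 2 or siCIN85 replicate 1 or 3. FOS values for which DESeq2 gave no adjusted P were counted as keeping their side. The log2 fold changes that changed sign were small or noisy. In upCIN85 versus Mock they ranged from -0.21 to 0.0234 for JUN, -0.18 to 0.0882 for IER2, -0.22 to 0.0357 for IER3, -0.08 to 0.19 for JUND and -0.18 to 0.33 for FOSL1. In siNeg versus Mock the ranges were -0.14 to 0.13 for IER2, -0.47 to 0.12 for FOSL1 and -0.83 to 0.063 for FOS. EGR1 ranged from -0.0887 to 0.81 for the difference and from -0.0419 to 0.85 in siCIN85 versus siNeg. Medians over the members moved by no more than the SD between libraries of their median deviation (0.127 to 0.218), but that of upCIN85 versus Mock turned from -0.098 to 0.008 without Mock replicate 2 and that of siNeg versus Mock from -0.088 to 0.004 without siNeg replicate 2. Groups of 3 libraries and 3 to 18 counts for FOS limit what could be detected.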
